A study of Bos taurus with 8 samples.

Results

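Gene expression in mononuclear cells of peripheral blood, which are mainly lymphocytes with some monocytes, was compared between lame crossbred cows and cows of the Tharparkar breed, an Indian zebu, that were not lame. The comparison took in 6 of the 8 arrays of the study: the 4 arrays titled as lame crossbred and the 2 titled as normal Tharparkar. The other 2 arrays, of normal crossbred cows, entered the fit for their spread and are given beside results as a further set of values. The labels name no treatment, age, farm or cause of lameness, and do not say which breeds were crossed. The 2 groups compared differ in lameness and in breed at once, so these cannot be told apart here. The lame arrays are titled R1_1, R1_2, R2_1 or R2_2. RNA was run in technical duplicate per the labels, so the lame arrays are taken as RNA samples R1 and R2 in duplicate and the Tharparkar arrays as 1 RNA sample in duplicate. How many cows gave each RNA sample is not given in the sources used here.

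Mononuclear cells carry the early arm of the blood's response to injury and infection. Monocytes and activated lymphocytes switch on immediate early genes, which encode transcription factors such as FOS and EGR1 and the phosphatases that restrain them, before they make cytokines such as interleukin-1 and the CXC chemokines. Those chemokines act on CXCR1 and CXCR2, receptors carried above all by neutrophils. Neutrophils and platelets are not mononuclear cells but can be carried into such preparations, so their marker genes were followed as well, as were those of red cell precursors.

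The dye was Cy3, on an Agilent bovine array read in 1 colour. A level below is the log2 of a spot's processed signal minus the 75th percentile of that array, so that 0 is the brightness of its 75th percentile probe and a difference of 1 is a 2-fold change. Levels of different genes are not compared, because each probe has its own brightness. Between 52.8% and 61.4% of the 43653 probes were well above background on 5 of the 6 arrays and 70.9% on lame R2_2. That array was also brighter in its blank spots, with a median raw signal of its negative controls of 107 against 54 to 65 on the other 5. Array number limits the precision. The pan-leukocyte gene PTPRC, the T cell genes CD3D and CD3E, the B cell gene MS4A1 and the monocyte gene CD14 were well above background on all 6 arrays. Duplicate arrays correlated across genes at 0.9953 for lame R1, 0.9823 for lame R2 and 0.9958 for Tharparkar, lame R1 and lame R2 arrays at 0.9526 to 0.9697, and lame and Tharparkar arrays at 0.9281 to 0.9489. Genes are not independent replicates in these correlations.

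Of 14545 genes tested, 3506 (24.1%) were called, at a Benjamini-Hochberg adjusted p under 0.05 in limma: 1841 (12.7%) were higher and 1665 (11.4%) lower in the lame arrays. At least 2-fold differences made up 1047 of the higher and 729 of the lower calls. In 771 of the higher and 498 of the lower genes both lame RNA samples lay at least 2-fold from Tharparkar in the same direction. The 4 lame arrays did not overlap the 2 Tharparkar arrays in any called gene, but 50.5% of all genes tested had no overlap, 24.5% with the lame arrays higher and 26% with them lower. Duplicates of an RNA sample are not separate cows, so p-values taken over arrays understate the uncertainty between cows. With the RNA sample as a random block, 205 genes (1.41%) were called, 109 higher and 96 lower, and all 205 were among the 3506. That fit kept 5 residual degrees of freedom, against 1 with duplicates averaged, and took the same correlation between duplicates for every gene. Tharparkar is 1 RNA sample, so lame R1 against lame R2 is the only spread between RNA samples within a group. P-values with the block therefore hold no spread between Tharparkar cows, and may still understate the uncertainty. An exact permutation test of 4 against 2 arrays has 15 arrangements and cannot give a p below 0.0667, so none was used. Without Tharparkar R1 859 genes were called, and 965 without Tharparkar R2.

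**Figure D1:**
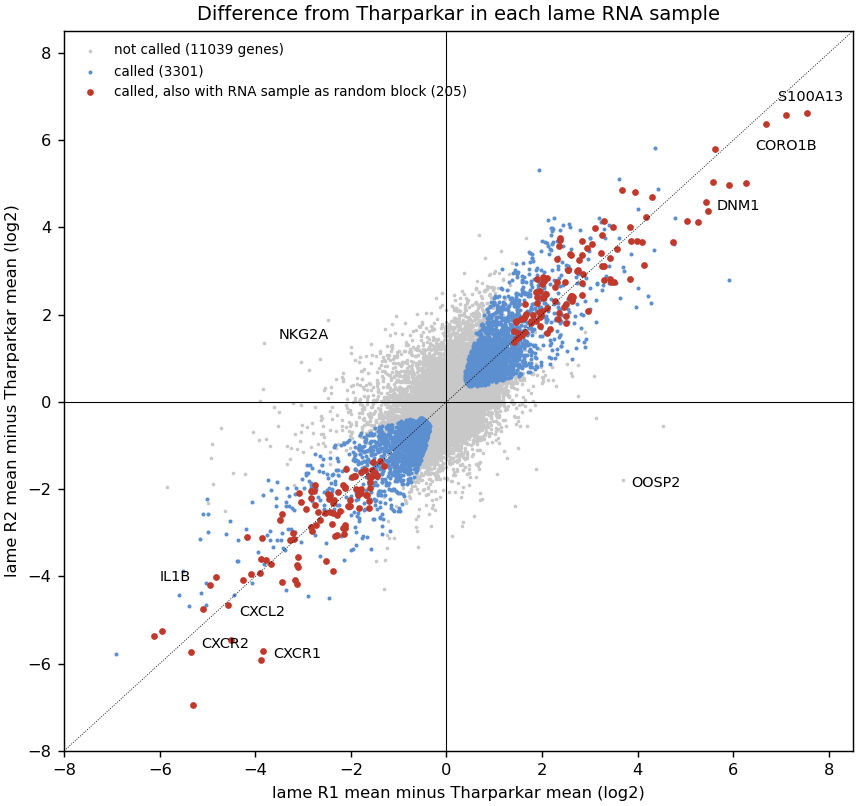
Each point is 1 of 14545 genes. The horizontal axis is the mean of the 2 lame R1 arrays minus the mean of the 2 Tharparkar arrays and the vertical axis the same for lame R2, both in log2 units, with a dotted line of equality. Grey points were not called (11039 genes), blue points were called (3301) and red points were also called with the RNA sample as a random block (205). All called genes lie in the lower left and upper right parts of the plot, and OOSP2 and NKG2A lie where the 2 lame RNA samples went opposite ways.

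Among genes with a symbol that were well above background on all 6 arrays, those that rose furthest in both lame RNA samples were S100A13, a small calcium-binding protein, and DNM1, dynamin 1, a GTPase that pinches off endocytic vesicles. The S100A13 level was 4.28 and 4.01 on the lame R1 arrays, 3.32 and 3.12 on the lame R2 arrays and -3.73 and -3.06 on the Tharparkar arrays. All 4 lame arrays lay far above both Tharparkar arrays, and the gap of 7.08 (SE 0.36, adjusted p = 6.92e-05) was 135-fold. The 2 normal crossbred arrays, at 4.70 and 4.54, lay with the lame arrays. DNM1 stood at 3.15 and 3.001 on the lame R1 arrays, 2.26 and 2.19 on the lame R2 arrays and -2.33 and -2.37 on the Tharparkar arrays, a 32-fold difference (4.998, SE 0.30, adjusted p = 0.00011), and its 3 other probes gave 3.36, 2.35 and 4.04. The trypsinogen gene PRSS2 stood at 2.63 and 2.60 on the lame R1 arrays, 2.57 and 2.31 on the lame R2 arrays and -1.19 and -1.304 on the Tharparkar arrays (3.77, SE 0.15, adjusted p = 2.28e-05). Each of these 3 genes was also called with the RNA sample as a random block (adjusted p = 0.007, 0.00348 and 0.00424).

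The remaining genes of the 12 that rose furthest covered several functions. OSBP2, an oxysterol-binding protein, rose by 3.56 (SE 0.31), LTC4S, which makes leukotriene C4, by 3.01 (SE 0.20, with 3.55 at its other probe) and RAB27B, a GTPase of vesicle secretion, by 2.87 (SE 0.15). The ribosome maturation factor TSR2 rose by 3.33 (SE 0.36) and CPXM2, a carboxypeptidase-like protein, by 3.23 (SE 0.25). These 5 genes were called with the random block as well. The nuclear pore gene NUP210 (4.50, SE 0.39), the protease inhibitor A2M (3.38, SE 0.34), the histone gene regulator HINFP (4.20, SE 0.43) and the ubiquitin ligase MGRN1 (3.06, SE 0.37) were called in the fit over arrays and not with the block. For HINFP and MGRN1 the gene's other probe gave -0.37 and -0.23, so their rise rests on 1 of 2 probes. Why the probes differed was not tested.

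Under the same limit to genes well above background on all 6 arrays, the 12 that fell furthest in both lame RNA samples included 4 genes of the cytokine and chemokine receptor lists, CXCL2, IL1B, IL1A and CXCR1, and 2 of the immediate early list, FOSB and EGR1. CXCL2, a chemokine that attracts neutrophils, stood at -1.298 and -1.302 on the lame R1 arrays, -1.16 and -1.62 on the lame R2 arrays and 3.28 and 3.26 on the Tharparkar arrays. The lame arrays lay close together and 24.5-fold below the Tharparkar arrays (-4.61, SE 0.16, adjusted p = 1.3e-05). IL1B, which encodes interleukin-1 beta, stood at -1.06 and -1.17 on the lame R1 arrays, -0.32 and -0.41 on the lame R2 arrays and 3.89 and 3.77 on the Tharparkar arrays. It was 23.7-fold lower (-4.57, SE 0.27, adjusted p = 0.000104) and its 3 other probes gave -2.39, -3.77 and -4.09. IL1A, which encodes interleukin-1 alpha, was lower by 24.2-fold (-4.60, SE 0.47, adjusted p = 0.000897), with lame R2_2 at -2.60 above the other 3 lame arrays, and was not called with the random block (adjusted p = 0.149). PLAUR, the urokinase receptor, fell by 4.42 (SE 0.35) and its other probe gave -5.69.

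CXCR1, a receptor of interleukin-8 on neutrophils, was low in both lame RNA samples but not equally so. It stood at -0.62 and -0.57 on the lame R1 arrays, -2.62 and -2.30 on the lame R2 arrays and 3.20 and 3.30 on the Tharparkar arrays (-4.78, SE 0.61, adjusted p = 0.00214). The lame R2 arrays lay below the lame R1 arrays, and both lay below Tharparkar. TGM3, a transglutaminase, stood at 2.11 and 1.93 on the lame R1 arrays, 2.02 and 1.98 on the lame R2 arrays and 5.95 and 5.89 on the Tharparkar arrays (-3.91, SE 0.13, adjusted p = 9.59e-06), with -5.81, -4.47 and -3.88 at its 3 other probes. The transcription factor ETS2 fell by 3.70 (SE 0.20), the growth arrest gene GADD45G by 3.79 (SE 0.27) and the neighbouring serine dehydratase genes SDS by 3.23 (SE 0.13) and SDSL by 3.62 (SE 0.32). Of these 12 genes, 11 were called with the random block, IL1A being the exception.

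**Figure D2:**
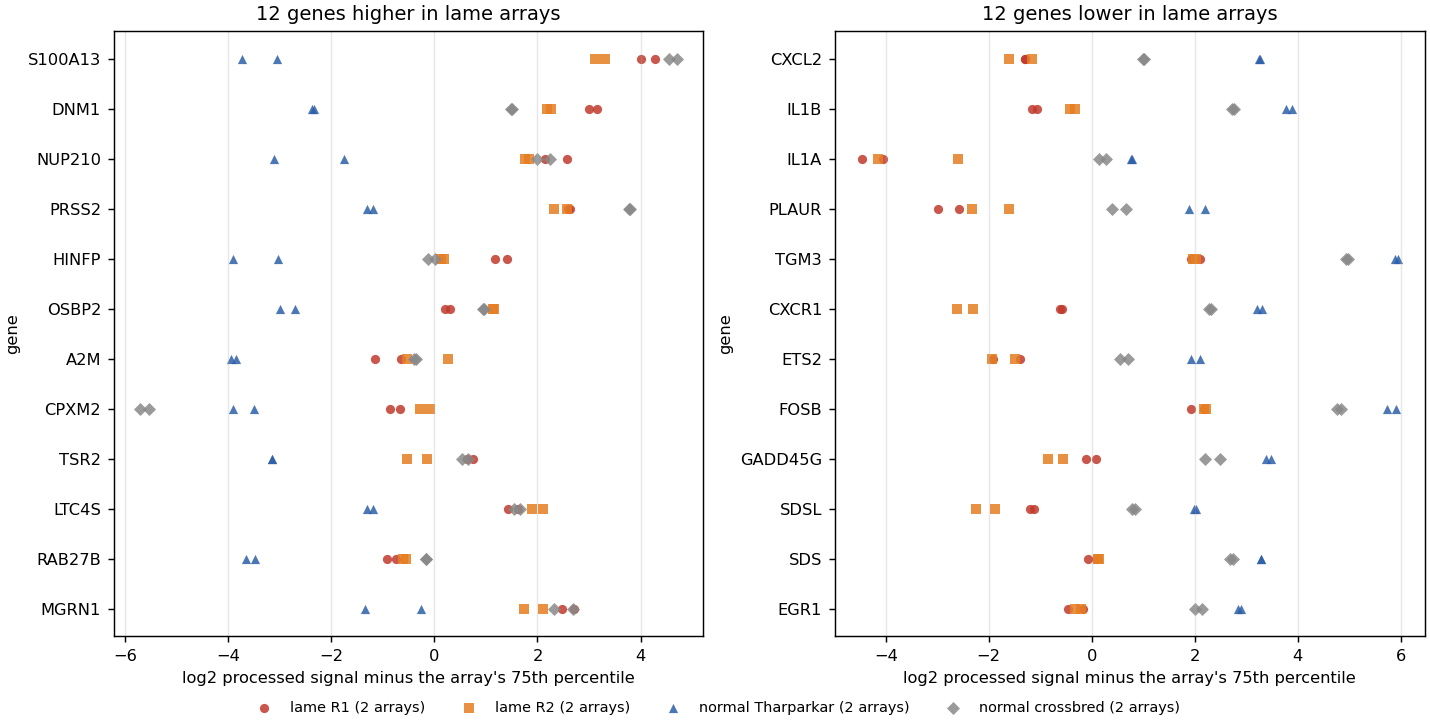
Level of the 12 genes that rose and the 12 that fell furthest in both lame RNA samples among those well above background on all 6 arrays, 1 point per array. The horizontal axis is the log2 level on the scale given above, red circles are lame R1, orange squares lame R2, blue triangles normal Tharparkar and grey diamonds normal crossbred arrays. In the left panel the normal crossbred points lie nearer the lame points for 11 of 12 genes, CPXM2 being the exception, and in the right panel they lie nearer the Tharparkar points for 12 of 12.

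The normal crossbred arrays, which share the crossbred label with the lame arrays and the normal label with the Tharparkar arrays, lay differently for the 2 sets of 12 genes. Their mean was nearer the lame mean in 11 of the 12 genes that rose furthest and nearer the Tharparkar mean in 12 of the 12 that fell furthest. For CXCL2 they stood at 1.00 and 1.02, for TGM3 at 4.98 and 4.95 and for IL1B at 2.77 and 2.72. Over all called genes this split did not hold, and the normal crossbred mean was more often nearer the lame mean in both directions. That was so in 1431 of 1841 higher genes (77.7%) and in 1013 of 1665 lower genes (60.8%). The same 2 Tharparkar arrays enter both distances, and each normal group is 1 RNA sample, so these counts are a description with no test.

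Immediate early and activation genes were low in the lame arrays as a group. Of 32 measured, 22 were called lower and 1 higher, where 11.4% of all genes were called lower, and 10 were lower with the random block as well. Their median difference was -1.27 (lame R1 -1.42, lame R2 -1.23), against -0.04 over all genes tested. By slide, the median came to -1.29 within slide 1 and -1.34 within slide 2. The normal crossbred arrays had a median of -0.47 against the same Tharparkar arrays.

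Among the AP-1 factors, which pair to form a transcription factor of the stress response, FOSB stood at 2.17 and 1.93 on the lame R1 arrays, 2.17 and 2.23 on the lame R2 arrays and 5.90 and 5.74 on the Tharparkar arrays. The lame arrays lay close together and 13-fold below Tharparkar (-3.70, SE 0.15, adjusted p = 2.46e-05), while its other probes gave -0.96 and -1.20. FOS fell by 2.57 (SE 0.41), FOSL2 by 2.22 (SE 0.30), JUNB by 1.07 (SE 0.15) and JUN by 0.71 (SE 0.16, with 0.13 and -1.17 at its other probes). JUND, at -1.32, SE 0.41, did not pass the test (adjusted p = 0.0521). The zinc finger factor EGR1 stood at -0.17 and -0.47 on the lame R1 arrays, -0.32 and -0.20 on the lame R2 arrays and 2.85 and 2.90 on the Tharparkar arrays (-3.17, SE 0.14, adjusted p = 4.57e-05). All 4 lame arrays lay about 3 units below both Tharparkar arrays. Both orphan nuclear receptors, NR4A2 (-3.64, SE 0.36) and NR4A1 (-3.44, SE 0.24), and the stress factor ATF3 (-3.50, SE 0.26) fell as well.

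Of the MAP kinase phosphatases, which switch off the signalling that induces them, DUSP1, DUSP2, DUSP5 and DUSP6 fell. DUSP2 fell by 3.63 (SE 0.37), DUSP1 by 1.37 (SE 0.12) and DUSP6 by 1.27 (SE 0.21), whereas DUSP10 had a difference of 0.73, SE 0.28 and did not pass the test (adjusted p = 0.0978). The kinase SGK1 fell by 2.68 (SE 0.15), NFIL3, a bZIP repressor, by 2.55 (SE 0.13), the G protein regulator RGS1 by 1.80 (SE 0.14) and the activation marker CD69 by 1.27 (SE 0.24). IER2 was the member that rose (1.35, SE 0.36, adjusted p = 0.0338). It stood at 4.04 and 4.13 on the lame R1 arrays, 2.93 and 3.12 on the lame R2 arrays and 2.10 and 2.32 on the Tharparkar arrays. Lame R1 lay about 1 unit above lame R2 for this gene, and both lay above Tharparkar. MYC (-0.12), KLF10 (-0.08), BTG1 (-0.14) and ZFP36L1 (-0.05) had small differences that did not pass the test.

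**Figure D3:**
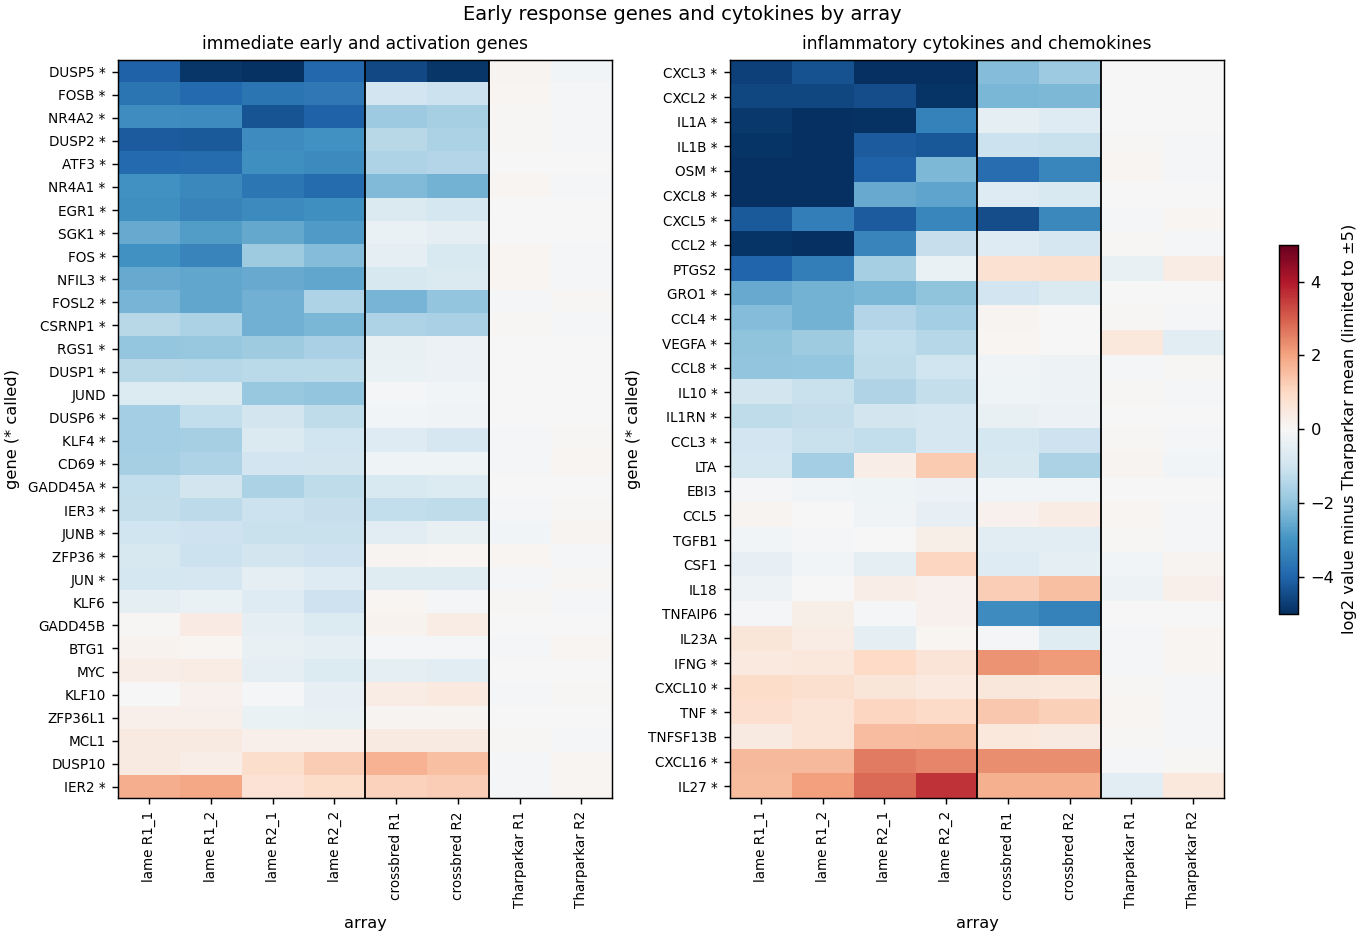
Heat maps of the 32 measured immediate early and activation genes and the 30 measured inflammatory cytokines and chemokines. Rows are genes in order of their difference, columns are the 8 arrays, colour is the log2 level minus the mean of the 2 Tharparkar arrays, limited to 5 in either direction, and a star marks called genes. Blue rows, below Tharparkar in the lame columns, fill most of the left panel and the upper part of the right one, and IER2, CXCL16 and IL27 are among the reddest rows of the lame columns.

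Inflammatory cytokines and chemokines split in direction, and 66.7% were called, against 24.1% of all genes. Of 30 measured, 15 were called lower and 5 higher, with a median of -1.05 (-1.14 for lame R1, -0.95 for lame R2; -1.11 within slide 1 and -0.99 within slide 2). Averaging over the probes of each gene gave a median of -0.36, and keeping genes well above background on all 6 arrays, which leaves out those that fell into the background, gave -0.177. Of the CXC chemokines that attract neutrophils, CXCL2, CXCL3, CXCL5, CXCL8 and GRO1 fell. CXCL3 stood at -4.11 and -3.79 on the lame R1 arrays, -5.33 and -4.46 on the lame R2 arrays and 0.55 and 0.56 on the Tharparkar arrays, well above background on 1 of 4 lame arrays (-4.98, SE 0.39, adjusted p = 0.000326). GRO1, the bovine gene named for the growth-related CXC chemokine, fell by 2.29 (SE 0.18), and CXCL8, which encodes interleukin-8, by 3.83 (SE 0.81). For CXCL8 the 2 lame RNA samples were -5.09 and -2.58 from Tharparkar, and its other probes gave -4.19 and -3.42. CXCL2, CXCL3, GRO1 and IL1B were called with the random block, and CXCL8 was not (adjusted p = 0.0927).

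Of the CC chemokines, which attract monocytes and T cells, CCL2, CCL3, CCL4 and CCL8 fell, and CCL5 (-0.12, SE 0.19) did not pass the test. CCL2 fell by 3.62 (SE 1.02), well above background on 1 of 4 lame arrays, with -5.01 in lame R1 and -2.23 in lame R2. CCL4 fell by 1.92 (SE 0.26), CCL8 by 1.55 (SE 0.29) and CCL3 by 1.03 (SE 0.15), of which another probe gave 0.78. The regulatory genes IL10 (fell by 1.18, SE 0.18) and IL1RN, the interleukin-1 receptor antagonist (fell by 1.07, SE 0.16), were lower too, though the other probes of IL1RN gave 0.67 and 0.00. PTGS2, the inducible cyclooxygenase, had a difference of -2.36, SE 0.94 and did not pass the test (adjusted p = 0.109), with -3.70 in lame R1 and -1.01 in lame R2.

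The members that rose were CXCL16, TNF, IFNG, CXCL10 and IL27. CXCL16, a membrane-bound chemokine, stood at 1.60 and 1.60 on the lame R1 arrays, 2.55 and 2.43 on the lame R2 arrays and -0.10 and 0.04 on the Tharparkar arrays (2.07, SE 0.31, adjusted p = 0.00398). TNF rose by 0.90 (SE 0.15), IFNG, interferon gamma, by 0.67 (SE 0.17) and CXCL10, which interferon gamma induces, by 0.69 (SE 0.16). IL27 was not well above background on either Tharparkar array and at least 2.03-fold higher, but its difference turned to -0.25 with normexp background correction. The normal crossbred arrays lay above Tharparkar for CXCL16, TNF and IFNG as well, by 2.33, 1.26 and 2.18.

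Of 13 chemokine receptors measured, 4 were called lower and 2 higher (46.2%, against 24.1% of all genes). CXCR2 stood at -3.91 and -4.01 on the lame R1 arrays, -4.95 and -3.72 on the lame R2 arrays and 1.60 and 1.19 on the Tharparkar arrays, well above background on 2 of 4 lame arrays. The difference was -5.54 (SE 0.34, adjusted p = 0.000131), and the normal crossbred arrays lay between them, at -0.70 and -0.93. CXCR4, the receptor that holds leukocytes in marrow and lymphoid tissue, stood at -0.71 and -0.51 on the lame R1 arrays, -0.55 and -0.53 on the lame R2 arrays and 1.79 and 1.75 on the Tharparkar arrays (-2.35, SE 0.13, adjusted p = 8.76e-05), and CCR1, a receptor of CC chemokines on monocytes, fell by 1.85 (SE 0.15, with -3.12 at its other probe). These 3 and CXCR1 were called with the random block. CX3CR1, the fractalkine receptor of patrolling monocytes and cytotoxic lymphocytes, rose by 1.03 (SE 0.13) and CCR4, a receptor of helper T cells, by 0.61 (SE 0.15). CCR4 turned to -0.18 with normexp.

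Granulocyte markers fell in part, and 44.8% were called, against 24.1% of all genes. Of 29 measured, 11 were called lower and 2 higher, with a median of -0.48 and, without the bright array lame R2_2, of -0.92. Over the genes well above background on all 6 arrays, a limit that leaves out those that fell into the background, it was -0.063. With the random block 4 of the lower calls were left, CXCR2, CXCR1, TGM3 and TCN1. The summed level of the 29 markers, in units of an array's 75th percentile, was 181 to 220 over the lame arrays against 288 and 277 on the Tharparkar arrays. Such a sum is weighted to the brightest probes, here S100A8, S100A12 and, on the Tharparkar arrays, TGM3. TGM3 alone makes up much of the gap, so the sum does not describe the markers as a group. Sums of other lists below are weighted to their brightest probes likewise. The same sum over all genes tested was also lower on the lame R2 arrays, at 70734 and 66320, than on the Tharparkar arrays, at 96696 and 94624, and was 95326 and 91018 on the lame R1 arrays. In bulk RNA, fewer cells of a type and less RNA per cell cannot be told apart. The fall included granule proteins: TCN1, a vitamin B12 carrier (-3.004, SE 0.30), lactoferrin LTF (-2.77, SE 0.64), the elastase ELANE (-2.20, SE 0.30) and the gelatinase MMP9 (-1.92, SE 0.27). The cathelicidins CATHL1, CATHL3 and CATHL4, antimicrobial peptides of cattle neutrophils, were not well above background on any lame array and were at least 3.28-, 2.22- and 1.28-fold lower. The calprotectin genes S100A8 (-0.40, SE 0.16) and S100A9 (0.37, SE 0.35) and S100A12 (0.20, SE 0.17), which neutrophils and monocytes make in quantity, did not pass the test. The other probes of S100A12 gave 2.31 and 2.44, so its result depends on the probe. Haptoglobin HP (1.16, SE 0.33) and arginase ARG1 (0.76, SE 0.20) rose. The part of granulocyte content in the fall of CXCR1, CXCR2, CXCL8 and IL1B was not tested.

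More platelet markers rose than fell. Of 19 measured, 10 were called higher and 2 lower, where 12.7% of all genes were called higher. With the RNA sample as a random block, 1 was called higher and 0 lower (9 of the 19 had an unadjusted p under 0.05 in limma). The median was 1.17 (0.79 for lame R1, 1.14 for lame R2; 1.09 within slide 1 and 1.17 within slide 2), and the summed level was 99.7 to 106 over the lame arrays against 54 and 56.9 on the Tharparkar arrays. VWF, von Willebrand factor, which tethers platelets to vessel walls, stood at -0.13 and -0.21 on the lame R1 arrays, 0.42 and 0.23 on the lame R2 arrays and -2.66 and -2.76 on the Tharparkar arrays (2.79, SE 0.20, adjusted p = 0.000251) and was called with the random block (adjusted p = 0.0144). All 4 lame arrays lay over 2 units above both Tharparkar arrays, and the normal crossbred arrays, at -0.83 and -0.79, lay between. The platelet tubulin TUBB1 rose by 2.20 (SE 0.42), the integrin ITGB3 by 1.98 (SE 0.17), clusterin CLU by 1.62 (SE 0.21) and the platelet chemokine PF4 by 1.12 (SE 0.13). Thrombospondin THBS1 (fell by 1.46, SE 0.30) and the ADP receptor P2RY12 (fell by 0.92, SE 0.13) went the other way, and ITGA2B, the partner of ITGB3, had 0.37, SE 0.15 and did not pass the test. Relative to all genes the list's median was 0.74 with quantile normalization and 0.35 with normexp. Against the same Tharparkar arrays the normal crossbred arrays had a platelet median of 0.75.

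Complement genes, whose products tag microbes and attract phagocytes, rose more often than they fell. Of 18 measured, 9 were called higher, where 12.7% of all genes were, and 2 lower. With the random block 1 was higher, CFB, and 0 lower (9 of the 18 had an unadjusted p under 0.05 in limma). The list had a median of 0.44 (0.33 for lame R1 and 0.54 for lame R2). CFB, factor B of the alternative pathway, stood at -0.42 and -0.66 on the lame R1 arrays, -0.55 and -0.39 on the lame R2 arrays and -2.50 and -2.59 on the Tharparkar arrays (2.04, SE 0.14, adjusted p = 0.000199). The 4 lame arrays lay close together and the normal crossbred arrays beside them, at -0.31 and -0.40. C2 rose by 1.19 (SE 0.24), C3 by 0.86 (SE 0.13) and the membrane protector CD59 by 1.86 (SE 0.33). C1QA (0.53, SE 0.13), C1QB (0.89, SE 0.15) and C1QC (0.74, SE 0.23), which macrophages make, rose, while the normal crossbred arrays differed from Tharparkar by -0.80, -0.66 and -0.63. The anaphylatoxin receptors differed: C5AR1, well above background on 3 of 4 lame arrays, stood at -2.87 and -3.35 on the lame R1 arrays, -2.62 and -3.45 on the lame R2 arrays and 0.36 and 0.28 on the Tharparkar arrays (-3.39, SE 0.25, adjusted p = 0.000274), and C3AR1 was not well above background in Tharparkar and at least 3.44-fold higher, turning to -0.20 with normexp. SERPING1, the C1 inhibitor, was called lower at a probe not well above background on any lame array, so no fold is given.

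**Figure D4:**
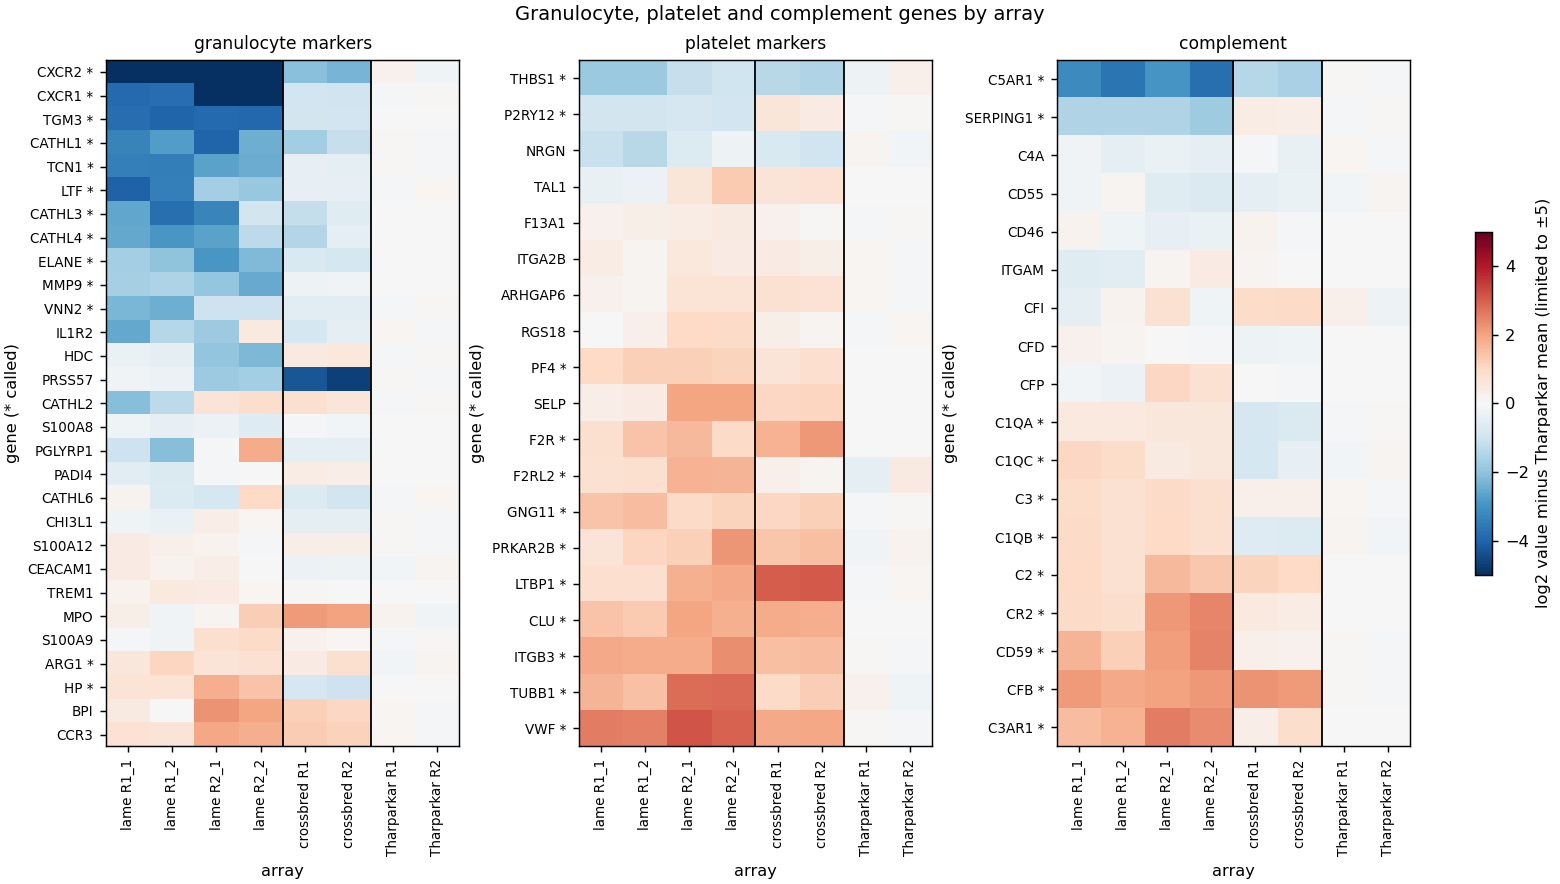
Heat maps of 29 granulocyte markers, 19 platelet markers and 18 complement genes by array. Rows are genes in order of their difference, columns are arrays, colour is the log2 level minus the Tharparkar mean, limited to 5 in either direction, and a star marks called genes. CXCR2, CXCR1 and TGM3 are darker blue on the 4 lame arrays than on the normal crossbred arrays, and the lower platelet rows, VWF and TUBB1 among them, are red on both crossbred groups.

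Lymphocyte markers went both ways. Of 27 T cell markers, 4 were called higher and 3 lower, a share near the 24.1% of all genes, with a median of 0.43 and a summed level of 245 to 300 over the lame arrays against 287 and 288 on the Tharparkar arrays. IL7R, the interleukin-7 receptor of naive and memory T cells, stood at -0.65 and -0.80 on the lame R1 arrays, -0.29 and -0.43 on the lame R2 arrays and -2.04 and -2.05 on the Tharparkar arrays (1.501, SE 0.17, adjusted p = 0.00144), and FYN (0.82, SE 0.14) and CD3D (0.44, SE 0.13) rose. LCP2 fell by 0.52 (SE 0.13) at 1 probe, its 3 others giving 0.13, 0.76 and 0.29, and CD5 by 0.88 (SE 0.19), although CD5 gave 0.97 at its other probe and 0.04 with the mean of its probes. The T cell median of the normal crossbred against the same Tharparkar arrays was 0.98. Of 5 gamma-delta T cell markers, 0 were called by limma and 0 had an unadjusted p under 0.05, and their median was 0.38. Of 18 NK and cytotoxic markers, 6 were higher and 0 lower (33.3% called). The higher ones included the protease CTSW (0.96, SE 0.14), the receptor CD244 (0.76, SE 0.17) and the chemokine XCL1 (0.73, SE 0.16). EOMES and GZMA also rose but turned to -0.38 and -0.10 with normexp.

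Of 14 B cell markers, 3 fell and 1 rose (28.6% called, against 24.1% of all genes). MS4A1, which encodes CD20, stood at 4.30 and 4.15 on the lame R1 arrays, 4.59 and 4.39 on the lame R2 arrays and 5.36 and 5.21 on the Tharparkar arrays (-0.93, SE 0.16, adjusted p = 0.00713), SPIB, a B cell transcription factor, fell by 1.15 (SE 0.23, with 0.24 at its other probe) and the complement receptor CR2 rose by 1.61 (SE 0.46). The B cell median was -0.02 in lame R1 and -0.70 in lame R2. Of 12 plasma cell markers, 4 fell and 1 rose (41.7% called), with a median of -0.65. The secretory genes TXNDC5 (-1.16, SE 0.15), XBP1 (-0.93, SE 0.16, with 0.04 and -0.47 at its other probes) and FKBP11 (-0.71, SE 0.21) fell. So did the factor IRF4 (-1.05, SE 0.27, with -0.34 at its other probe). PRDM1 (0.99, SE 0.21) rose, its other 3 probes lying between -0.17 and 0.23.

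Monocyte markers went both ways, and 31.25% were called, against 24.1% of all genes. Of 32 measured, 7 rose and 3 fell, with a median of -0.02 and a summed level of 326 to 394 over the lame arrays against 352 and 347 on the Tharparkar arrays. CD14, which presents lipopolysaccharide to its receptor, stood at -0.65 and -0.86 on the lame R1 arrays, 0.13 and 0.06 on the lame R2 arrays and 1.36 and 1.22 on the Tharparkar arrays (-1.62, SE 0.30, adjusted p = 0.00949), and TLR4, that receptor, at -1.35 and -1.54 on the lame R1 arrays, -0.56 and -0.31 on the lame R2 arrays and 1.55 and 1.53 on the Tharparkar arrays (-2.48, SE 0.35, adjusted p = 0.00312). Both genes were lowest in lame R1, and no lame array reached a Tharparkar array. The other probes of TLR4 gave -0.99 and -0.92. TLR2 fell by 1.08, with -0.18, -1.04 and -0.63 at its other probes. AIF1 (1.29, SE 0.15), CX3CR1, the growth factor receptor CSF1R (0.80, SE 0.20), LGALS3 (0.48, SE 0.14) and the 3 C1Q genes rose. Of the dendritic, erythroid and epithelial lists 40%, 43.8% and 30% were called. Of 10 dendritic cell markers, CD83 (-1.60, SE 0.20) and IRF8 (-1.299, SE 0.17, with -0.50 at its other probe) fell. IDO1 (1.41, SE 0.21) and NRP1 rose, NRP1 turning to -0.35 with normexp. Of 16 erythroid markers, 5 rose, with ALAS2, the first enzyme of haem synthesis in red cells, at 2.21, SE 0.38 and the globin HBB at 1.34, SE 0.30, and SLC25A37 (-1.04, SE 0.23) and UROD (-0.96, SE 0.24) fell. Of 10 keratins and epithelial markers, ELF3 (0.99, SE 0.14) and LSR rose, LSR turning to -0.34 with normexp, and EPCAM (-1.65, SE 0.26, well above background on 2 of 4 lame arrays) fell. Of the 138 genes of the T cell, NK, B cell, plasma cell, monocyte, dendritic, erythroid and epithelial lists, 0 were called with the random block in limma (24 had an unadjusted p under 0.05).

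**Figure D5:**
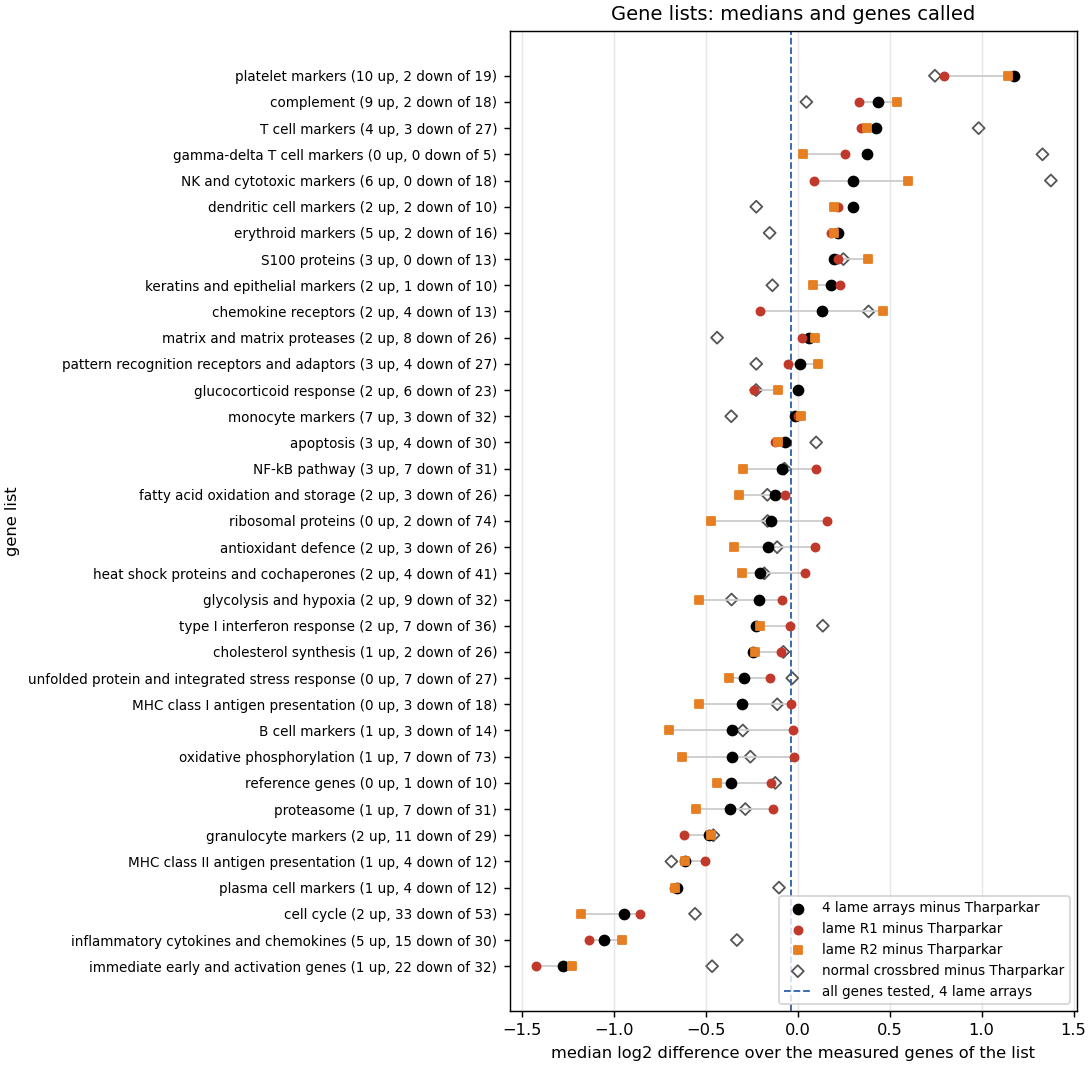
Median log2 difference of each of 35 gene lists, with the number of genes called up and down of those measured. Black points are the 4 lame arrays minus Tharparkar, red circles and orange squares the lame R1 and lame R2 samples, open diamonds the normal crossbred arrays, all against the same 2 Tharparkar arrays, and the dashed line is the median of all genes tested, -0.04. Immediate early genes, cytokines and cell cycle genes lie farthest left and platelet markers farthest right.

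Cell cycle genes held the most lower calls of the 35 lists, and 66% were called, against 24.1% of all genes. Of 53 measured, 33 were called lower and 2 higher, with a median of -0.94 (-0.86 for lame R1, -1.18 for lame R2; -1.03 within slide 1 and -0.92 within slide 2). CCNE1, the cyclin that drives entry into DNA replication, stood at -0.55 and -0.52 on the lame R1 arrays, -0.82 and -0.82 on the lame R2 arrays and 1.66 and 1.72 on the Tharparkar arrays (-2.37, SE 0.15, adjusted p = 0.000157), and was called with the random block (adjusted p = 0.011). With that block the 33 lower calls became 4 (CCNE1, BIRC5, CDCA3 and CCNA2) and the 2 higher calls 0 (30 of the 53 had an unadjusted p under 0.05 in limma), so the other falls named here rest on the fit over arrays. The normal crossbred arrays, at -0.30 and -0.22, lay by the lame arrays. Among mitotic regulators CDCA8 fell by 2.26 (SE 0.23), BIRC5 by 2.05 (SE 0.15), CDCA3 by 2.03 (SE 0.28), CDK1 by 1.76 (SE 0.24), AURKB by 1.71 (SE 0.29) and CDC20 by 1.69 (SE 0.18, with -0.33 at its other probe). Among replication genes the ribonucleotide reductase subunit RRM2 fell by 1.60 (SE 0.16), TK1 by 1.21 (SE 0.22), PCNA by 1.12 (SE 0.24) and MCM4 by 0.86 (SE 0.14). The cyclin CCND2 rose (0.46, SE 0.13, adjusted p = 0.039), turning to -0.10 with median scaling, and CDCA5, not well above background in Tharparkar, rose and turned to -0.39 with normexp. The median of the normal crossbred arrays was -0.56.

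Type I interferon response genes, which encode antiviral proteins, were called at a share near that of all genes: 7 of 36 were lower and 2 higher, with a median of -0.23. IFIT3 stood at -2.35 and -2.14 on the lame R1 arrays, -1.28 and -1.62 on the lame R2 arrays and 1.21 and 1.29 on the Tharparkar arrays (-3.10, SE 0.29, adjusted p = 0.000645), with -1.92 at its other probe, and was called with the random block. OAS1X fell by 3.56 (SE 0.56), well above background on 3 of 4 lame arrays, whereas the normal crossbred arrays lay above Tharparkar for it, by 1.13. IFI35 rose (1.17, SE 0.29) with -0.40 at its other probe, and OAS2 was at least 2.46-fold higher, turning to -0.21 with normexp. Of 27 pattern recognition receptors and adaptors, 4 fell and 3 rose, 25.9% against 24.1% of all genes: with TLR4, CD14 and TLR2 fell the adaptor MAVS, and TLR10 (0.84, SE 0.21), TLR3 and IRAK1 rose, IRAK1 turning to -0.03 with normexp.

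In the NF-kB pathway, which relays signals from those receptors to cytokine genes, 7 of 31 genes fell and 3 rose. That was 32.3% called, against 24.1% of all genes. NFKBID stood at 2.54 and 2.32 on the lame R1 arrays, 1.68 and 1.39 on the lame R2 arrays and 4.58 and 4.57 on the Tharparkar arrays (-2.59, SE 0.32, adjusted p = 0.00191) and its 4 other probes gave -1.11 to -2.53. NFKBIZ fell by 1.38 (SE 0.19) and NFKBIA, the inhibitor that the pathway induces, by 0.76, with 0.27, -0.55 and -0.44 at its other probes. CYLD, a deubiquitinase that restrains the pathway, rose (1.35, SE 0.21), as did the receptor LTBR (1.18, SE 0.24) and NFKBIE, whose other probe gave -0.43. Of 12 MHC class II genes, 4 fell and 1 rose, with a median of -0.61: BOLA-DYB stood at -1.69 and -2.07 on the lame R1 arrays, -2.43 and -1.54 on the lame R2 arrays and 0.59 and 0.37 on the Tharparkar arrays (-2.41, SE 0.26, adjusted p = 0.000977), BOLA-DOB fell by 1.31 (SE 0.29), and the protease LGMN rose (1.40, SE 0.17) with -0.36 and 0.23 at its other probes. The normal crossbred arrays had a class II median of -0.69. The share called was 41.7% for the class II list and 16.7% for the class I list. Class II genes are many-copied and variable between cattle, so probes may share signal between copies. Of 18 MHC class I genes, the peptide transporters TAP1 (fell by 0.98, SE 0.18) and TAP2 (fell by 0.78, SE 0.21) and PSMB10 were lower and 0 were higher.

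In several metabolic and housekeeping lists the 2 lame RNA samples had different medians. Relative to all genes, the oxidative phosphorylation, ribosomal and proteasome medians were -0.323, -0.110 and -0.332. With normexp they turned to 0.057, 0.318 and 0.084. Oxidative phosphorylation genes had a median of -0.02 in lame R1 and -0.63 in lame R2, with 7 of 73 lower and 1, UQCRH (1.296, SE 0.26), higher (11% called, against 24.1% of all genes). Ribosomal proteins had 0.16 and -0.47, with 2 of 74 lower (2.7%), RPS9 and RPL3, and RPL3 gave 0.47 with the mean of its probes. The proteasome list had -0.14 and -0.55, with 7 of 31 lower and PSMA3 higher (25.8% called, near the share of all genes). Of 32 glycolysis and hypoxia genes, 9 were lower and HMOX1 and PFKM were higher (34.4% called). Among the lower ones were VEGFA (-1.61, SE 0.33), DDIT4 (-1.38, SE 0.21) and the glucose transporters SLC2A1 (-0.97, SE 0.25) and SLC2A3 (-1.08, SE 0.15, with 0.62 at 1 of its 4 other probes). HMOX1 turned to -0.14 with median scaling and PFKM to -0.27 with normexp.

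Single genes stood out in the other metabolic and stress lists. Of the fatty acid and glucocorticoid lists 19.2% and 34.8% were called, against 24.1% of all genes. DGAT2, which makes triglyceride, stood at 2.13 and 2.06 on the lame R1 arrays, 1.41 and 1.40 on the lame R2 arrays and 5.16 and 5.24 on the Tharparkar arrays (-3.45, SE 0.25, adjusted p = 0.00025), and its other probes gave -2.57 and -3.02. The lame arrays lay 10.9-fold below Tharparkar, in a list of 26 fatty acid genes with 3 lower and 2 higher calls. SRXN1, sulfiredoxin, which repairs oxidised peroxiredoxins, stood at 2.03 and 2.04 on the lame R1 arrays, 1.77 and 1.88 on the lame R2 arrays and -0.65 and -0.46 on the Tharparkar arrays (2.49, SE 0.15, adjusted p = 0.000131), whereas the mitochondrial superoxide dismutase SOD2 fell by 1.18 (SE 0.19). Of the 26 antioxidant genes 2 rose and 3 fell (19.2%, against 24.1% of all genes). Of 41 heat shock proteins and cochaperones, 4 fell and 2 rose (14.6%), with HSPB8 (fell by 1.79, SE 0.17) called with the random block and BAG3 (1.24, SE 0.17) and CHORDC1 (1.12, SE 0.16) higher. Of 27 unfolded protein and integrated stress genes, 7 fell and 0 rose (25.9%, near the 24.1% of all genes), with ATF3 and SESN2 (-2.70, SE 0.58) among them. In the glucocorticoid list 6 of 23 fell, SGK1, CXCR4 and DUSP1 among them, while FKBP5, a textbook glucocorticoid target, rose (1.32, SE 0.13, adjusted p = 0.000645) to levels of 1.90 and 1.90 on the lame R1 arrays, 1.96 and 2.04 on the lame R2 arrays and 0.67 and 0.59 on the Tharparkar arrays.

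Matrix genes included members of the plasminogen system, and 38.5% of the list was called, against 24.1% of all genes. Of 26 measured, 8 fell and 2 rose: with PLAUR fell its ligand PLAU (-2.23, SE 0.24) and the hyaluronidase HYAL2 (-2.53, SE 0.26), whose 4 other probes gave -2.26 to -3.22. Fibronectin FN1 (1.26, SE 0.14) and COL18A1 (1.73, SE 0.14) rose. COL6A1 fell by 1.56 (SE 0.13) with 0.60 at its other probe, and ADAMTS1 was called lower at a probe not well above background on any lame array, so no fold is given. Of 30 apoptosis genes, BAX (-1.26, SE 0.21), BID, FAS and TNFRSF10D fell and BOK (1.11, SE 0.22), BCL2L1 and BCL2L2 rose, 23.3% of the list against 24.1% of all genes. BCL2L2 turned to -0.11 with normexp, and TNFRSF10D, whose 3 other probes gave 0.32, 0.11 and 0.21, to 0.0005135 with the mean of its probes. Of 26 cholesterol synthesis genes, NR1H3 (0.72, SE 0.15) rose and TM7SF2 (-0.64, SE 0.14) and MSMO1 (-0.53, SE 0.14) fell, the 3 other probes of MSMO1 giving -0.15, 0.52 and 0.11. Of 13 S100 genes, S100A13, S100A14 and S100A1 rose (23.1% called), S100A14 being at least 3.48-fold higher and turning to -0.09 with normexp.

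Of the 10 reference genes, YWHAZ was called lower (-0.46, SE 0.14, adjusted p = 0.0484). ACTB (-0.09, SE 0.21), GAPDH (-0.18, SE 0.16), PPIA (-0.20, SE 0.17) and PTPRC (0.10, SE 0.13) were not called, and each of these 4 changed sign under another scaling. HPRT1 had -0.86, SE 0.37, with -1.40 in lame R1 and -0.32 in lame R2. The median of the 10 was -0.36.

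Some genes were detected in 1 group and in no array of the other. The fold difference of such a gene is given, here and above, as a lower bound. It sets the brighter group's mean against the dimmest signal that still counted as well above background on the other group's arrays, or the probe's own where that was higher. Of the 14545 genes tested, 378 seen in the lame and 71 seen in the Tharparkar arrays had such a bound. Others, such as SERPING1 and ADAMTS1, had none and are not in these counts. The 2 counts cannot be weighed against each other. The first needed absence from 2 Tharparkar arrays, the second from 4 lame arrays, the bright lame R2_2 among them. A gene not well above background on some array of 1 group passed the filter only through the other group. Its p-value and call, wherever given, are therefore a description and no support for a difference. Of the genes seen in the lame arrays, CORO1B, a coronin of the actin cytoskeleton, had the largest bound. It stood at 1.06 and 1.08 on the lame R1 arrays, 0.86 and 0.63 on the lame R2 arrays and -5.57 and -5.68 on the Tharparkar arrays, at least 37-fold higher, but its other probe gave 1.03. The zinc finger gene ZNF304 was at least 32.6-fold higher, UNC93A at least 31.2-fold, the dicarboxylate transporter SLC13A3 at least 19.2-fold and the beta-3 adrenergic receptor ADRB3 at least 12.1-fold. The normal crossbred arrays held ZNF304 at 1.02 and 1.06, beside the lame arrays, and CORO1B at -4.23 and -4.30, nearer Tharparkar.

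Of the genes seen in Tharparkar, DUSP5, another MAP kinase phosphatase, stood at -4.71 and -5.53 on the lame R1 arrays, -5.60 and -4.58 on the lame R2 arrays and -0.51 and -0.82 on the Tharparkar arrays and was lower in the lame arrays by at least 12.9-fold. RUFY4 was at least 8.79-fold lower, the cytokine OSM, oncostatin M, at least 7.8-fold, the transcription factor NFIB at least 5.56-fold and the neutrophil-attracting chemokine CXCL5 at least 5.06-fold. DUSP5, OSM, NFIB and CXCL5 were not well above background on the normal crossbred arrays either, whereas RUFY4 was, at -2.37 and -2.49.

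The normal crossbred mean lay within 0.25 of the Tharparkar mean in 418 of the called genes and within 0.25 of the lame mean in 1101. In the first set the lame arrays stood apart from both normal groups. ARPC3, a subunit of the Arp2/3 complex that branches actin, stood at 3.25 and 3.22 on the lame R1 arrays, 3.09 and 2.93 on the lame R2 arrays and 5.23 and 5.29 on the Tharparkar arrays and at 5.38 and 5.49 on the normal crossbred arrays (-2.14, SE 0.15, adjusted p = 0.000199). CRISPLD2, a secreted lipopolysaccharide-binding protein, stood at 1.35 and 1.29 on the lame R1 arrays, 1.03 and 0.88 on the lame R2 arrays and 3.39 and 3.30 on the Tharparkar arrays and at 3.29 and 3.23 on the normal crossbred arrays (-2.21, SE 0.17, adjusted p = 0.000316). Both were called with the random block. The potassium channel KCNJ2 (-2.91, SE 0.33, well above background on 1 of 4 lame arrays) and the elongation factor ELL2 (-1.99, SE 0.19) fell as well, and PLCXD3 was called lower at a probe not well above background on any lame array. Of the higher genes POP1, a subunit of ribonuclease P, rose by 1.95 (SE 0.32) and was well above background on all arrays. CEP57, CDCA5, TUFT1 and SLC7A1 were not well above background in Tharparkar, with bounds of 2.84-, 2.2-, 3.32- and 1.98-fold, and each turned negative with normexp.

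In the second set the Tharparkar arrays stood apart from both crossbred groups. ZSCAN16, a zinc finger gene, stood at -1.35 and -1.26 on the lame R1 arrays, -1.15 and -1.10 on the lame R2 arrays and -4.57 and -4.49 on the Tharparkar arrays and at -0.97 and -1.01 on the normal crossbred arrays, at least 8.49-fold higher in the lame arrays. NUP210 and A2M, described above, and the uroplakin UPK1A (3.20, SE 0.21, well above background on 1 of 2 Tharparkar arrays) rose as well, and TMEM161A was called higher at a probe not well above background on either Tharparkar array. The Rab5 exchange factor RIN2 stood at -0.16 and -0.39 on the lame R1 arrays, -0.87 and -1.43 on the lame R2 arrays and 2.50 and 2.25 on the Tharparkar arrays and at -0.83 and -0.82 on the normal crossbred arrays (-3.09, SE 0.34, adjusted p = 0.00111). DUSP5, CXCL5, C21orf140 (-3.12, SE 0.48) and the synaptotagmin SYT12 (-3.78, SE 0.99) fell as well, SYT12 being well above background on 1 of 4 lame arrays.

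The lame RNA samples opposed each other in 37 genes, each sample lying at least 1 unit from Tharparkar in its own direction: 7 were high in lame R1 and 30 in lame R2. OOSP2, named for oocyte secretion, stood at -0.09 and -0.11 on the lame R1 arrays, -5.76 and -5.38 on the lame R2 arrays and -3.68 and -3.90 on the Tharparkar arrays. Both lame R1 arrays lay above and both lame R2 arrays below the Tharparkar arrays, and the mean difference of 0.95 had an SE of 1.76. ZNF750 went the same way (1.44 in lame R1, -2.38 in lame R2). NKG2A, an inhibitory NK cell receptor, stood at -6.37 and -4.47 on the lame R1 arrays, -2.17 and -2.12 on the lame R2 arrays and -3.41 and -3.41 on the Tharparkar arrays. The vessel factor ANGPT1 (-1.05 and 1.97) and the receptor FGFR1 (-1.29 and 1.67) were likewise low in lame R1 and high in lame R2, and the mean difference of each turned negative with normexp. The lowest levels of OOSP2 and NKG2A are as low as those of DUSP5, which was not well above background on the lame arrays. None of these 5 genes was called. On the bright array lame R2_2 the median probe stood at -2.09, against -3.71 to -3.23 on the other 5 arrays compared, so dim probes stood higher on it. Its part in the counts of 7 and 30 was not tested. The median SD between duplicate arrays was 0.098 in lame R1, 0.1231 in lame R2 and 0.0791 for Tharparkar, and that between the lame R1 and R2 means was 0.348.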

How the data were processed

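Total RNA of mononuclear cells was read on 8 arrays in 1 colour, taken as 4 RNA samples in duplicate. The deposited intensity per spot is the processed signal, background-subtracted and detrended by Agilent Feature Extraction per the file headers (version 12.0.3.1, whereas the submitters' processing notes give 11.5.1.1). The deposited flags, other values of 0 or 1 per spot, say whether a spot is well above background, saturated or an outlier, per the file headers. The authors' deposited table of log2 values was used as an alternative.

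From these, log2 signal minus each array's 75th percentile over all 43653 noncontrol probes was taken, and 56 probes with an outlier flag were then left out. Kept probes (23694) were well above background on all lame or on both Tharparkar arrays, and a gene took 1 probe, giving 14545 genes. Probe names were matched to RefSeq (27054 probes matched 1 gene, 16599 kept the file's name). The array was annotated on another genome build than the RefSeq table, so no coordinates are given. limma 3.58.1 in R 4.3.3 fitted 3 group means over all 8 arrays, so that the groups share 1 estimate of the spread, with Benjamini-Hochberg adjustment over all genes and a threshold of 0.05. The fit was tested on simulated data with independent arrays. That simulation held no duplicates of an RNA sample, so it says nothing on how duplicates affect the calls. Normexp, an alternative, used the median spot signal.

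Genes named with values were the 12 highest and 12 lowest by the smaller of the lame R1 and lame R2 differences among called genes well above background on all 6 arrays, the 5 largest lower bounds each way, up to 2 members of each list each way, the reference genes, the 5 with opposite lame samples, and the 5 highest and 5 lowest called genes with the normal crossbred mean within 0.25 of either group. Other list members are named as examples chosen after their values were seen. Some genes that these rules name are not reported here, though list counts include them. The comparison, its genes and the 35 lists were chosen with earlier results of these data known. Alternatives were scaling, background, filter, probe rule, blocks, array weights, the 6 compared arrays alone, single lame samples and each array left out.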

Additional observations from a re-analysis of the deposited data

Results flagged for a closer look

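In 4 of 164 named genes, 1 of the 4 lame arrays lay far from the other 3, and it was lame R2_2, the bright array, each time. For ITGB3 it stood at -1.425 against -1.883 to -1.859, a gap of 0.948 of the group's range. For MSMO1 it stood at 4.128 against 4.357 to 4.39 (0.875 of the range), for SERPING1 at -5.386 against -5.135 to -5.13 (0.981) and for TUFT1 at -2.838 against -2.381 to -2.328 (0.897). Chance gives such a gap in about 1 of 20 groups of 4 independent values. The 4 lame arrays are taken as duplicate pairs, so that rate does not carry over to them.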

How the results depend on the processing

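The count of 3506 called genes fell to 656 when arrays were scaled on their median (26.5% of calls higher, against 52.5%; the median of all genes moved from -0.04 to -0.59), to 1986 with normexp (37.6% higher), to 1347 with no filter on dim probes, to 516 with duplicates averaged (1 residual degree of freedom) and to 205 with the RNA sample as a random block. It rose to 8366 with array weights, 8258 with lame R1 alone, 8663 with lame R2 alone (40.1% higher) and 5298 with each probe tested. Leaving out 1 array gave 859 to 3892 calls. The slide as a replicate block gave 2920 and the R number as a replicate block 4237. Fitting only the 6 arrays compared, without the normal crossbred arrays, gave 2374. The numbers pair only 2 arrays a group and were not taken as pairs (correlation of deviations 0.236 by slide and -0.021 by R number). Chosen after seeing the data, duplicates averaged after quantile normalization gave 0 calls in limma (1059 at an unadjusted p under 0.05), and the random block without lame R2_2 gave 285. Relative to all genes, 16 of 35 lists kept the sign of their median under quantile normalization and normexp. The B cell, erythroid, epithelial, type I interferon, NF-kB, MHC class I, chemokine receptor, glucocorticoid, apoptosis and matrix lists did not. Nor did the oxidative phosphorylation, glycolysis, heat shock, unfolded protein, cholesterol, antioxidant, proteasome, ribosomal and reference lists. Median scaling moves the difference of every gene alike, so it could not turn a sign relative to all genes. Taken without that reference, it turned the medians of 12 of 35 lists, the T cell, NK and complement lists among them. The cause of these changes was not tested.

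Single genes changed sign as follows. With normexp, ACTB (0.20), GAPDH (0.11) and PPIA (0.16) turned positive, and ANGPT1 (-0.36), BCL2L2 (-0.11), C3AR1 (-0.20), CCR4 (-0.18), CDCA5 (-0.39), CEP57 (-0.19), EOMES (-0.38), FGFR1 (-0.56), GZMA (-0.10), HBE1 (-0.25), IL27 (-0.25), IRAK1 (-0.034), LSR (-0.34), NRP1 (-0.35), OAS2 (-0.21), PFKM (-0.27), S100A14 (-0.091), SLC7A1 (-0.32) and TUFT1 (-0.20) negative. Of the 17 called genes among them, 15 were well above background on at most 1 Tharparkar array. With quantile normalization, before or after averaging duplicates, ACTB (0.22), GAPDH (0.093), PPIA (0.15) and FGFR1 (-0.33) turned. With median scaling ANGPT1 (-0.10), CCND2 (-0.10), FGFR1 (-0.36), HMOX1 (-0.14) and PTPRC (-0.46) turned. With the mean of probes CD5 (0.045), RPL3 (0.47) and TNFRSF10D (0.0005135) turned. With array weights ACTB (0.14), ANGPT1 (-0.91), FGFR1 (-1.11) and ZNF750 (1.24) turned. With lame R1 alone ACTB (0.17), ANGPT1 (-1.05), FGFR1 (-1.29) and ZNF750 (1.44) turned, and with lame R2 alone NKG2A (1.27) and OOSP2 (-1.78). FGFR1 was -0.016 with the random block without lame R2_2. Over the fits that left out 1 array, the difference ran for ACTB from -0.19 to 0.032, ANGPT1 from -0.053 to 0.99, FGFR1 from -0.41 to 0.74, NKG2A from -0.92 to 0.49 and ZNF750 from -1.11 to 0.38.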

Other observations

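Of 8697 tested genes placed in the order of the RefSeq table, 15 runs of at least 4 neighbouring tested genes were called in 1 direction, and 3 runs held 5. The chemokine genes CXCL2, CXCL3 and GRO1 with AREG and PARM1, the MHC class II region genes LRRC1, DSB, BOLA-DYB, BOLA-DOB and TAP2, and ODC1, HPCAL1, RRM2, KLF11 and GRHL1 were lower. Runs of 4 included CKAP2L with IL1A, IL1B and IL1RN, NME6 with 3 cathelicidin genes, and C5AR1 and C5AR2 with SAE1 and CCDC9, all lower, and the zinc finger genes ZNF45, ZNF226, ZNF227 and ZNF180, higher. These runs are a description with no test.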
